A study of Mus musculus with 27 samples.

Results

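The gene expression of C2C12 myotubes at 48 h after a serum pulse was compared with that at 24 h, that is, with cultures 24 h earlier, which lie near the same phase of the circadian clock. The comparison holds 6 of the 27 libraries of a time course, 3 at 48 h and 3 at 24 h, chosen by the time point in their titles and by no measured value. C2C12 is a mouse myoblast line, derived from 1 clone, whose cells leave the cell cycle and fuse into contractile myotubes when serum is withdrawn. Both groups had the same history and differ only in the time of harvest: growth in DMEM with 10% FBS, seeding of 50000 cells in each well of 6-well plates, a switch at about 90% confluence to DMEM with 2% horse serum, and then 2 h in 50% horse serum. The other time points run from 12 h to 60 h in steps of 6 h. Of the steps of the same length that share no library with the comparison, 42 h against 18 h and 54 h against 30 h were tested beside it, while 36 h against 12 h and 60 h against 36 h were not. The labels give replicate numbers from 1 to 3 at each time point without saying whether these are separate cultures, so p-values measure the spread between these libraries, which may in part be technical.

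Nearly all cells carry a circadian clock. The activators CLOCK and BMAL1 (gene Arntl) switch on the Per and Cry genes, whose proteins return to block the activators, and the nuclear receptors Nr1d1 and Nr1d2 form another loop by repressing Arntl. A short exposure to concentrated serum sets the clocks of cultured cells to a common phase. Harvests a whole cycle apart compare cultures near the same clock phase, and what differs between them can include change that does not repeat each day. Such change cannot be told apart here from differences in exact phase or between libraries. C2C12 cultures after a serum pulse go on differentiating, return from rich to poor medium and lay down extracellular matrix.

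The 6 libraries held 18.7, 18.7 and 23.0 M counted reads at 48 h, and 24.1, 19.1 and 20.9 M at 24 h. Of 20446 genes, 12687 passed the filter on low counts. Levels are given as CPM (read counts relative to the scaled library size), and a gene is said to have risen or fallen where edgeR's quasi-likelihood test, fitted to all 27 libraries, gave a Benjamini-Hochberg adjusted p below 0.05 over all genes tested. The cultures had the markers of myotubes at both times, with summed levels of 9230 to 9720 CPM at 48 h and 8580 to 9990 CPM at 24 h over 8 marker genes. Of 14 immune and endothelial markers, 4 could be tested and 0 were called by edgeR (0 by DESeq2 and 0 at an unadjusted p under 0.05), with summed levels of 2.86 to 3.30 CPM at 48 h and 2.74 to 3.44 CPM at 24 h and no read of Cd3e or Emcn. Of 9 adipocyte markers 3 could be tested and 0 were called by edgeR or DESeq2 (1 at an unadjusted p under 0.05), with summed levels of 30.2 to 33.1 CPM at 48 h and 33.2 to 38.9 CPM at 24 h, and Cidec, Lep, Plin1 and Retn had no read. Of 8 neural markers 3 could be tested and 0 were called by either tool (0 at an unadjusted p under 0.05), with summed levels of 143 to 207 CPM at 48 h and 137 to 167 CPM at 24 h, and Rbfox3, Snap25 and Sox10 had no read. Over all genes tested, edgeR called 3.92%. The libraries numbered 2 stand apart: over all genes the deviations of the 48 h libraries from their group mean correlated with those of the same-numbered 24 h libraries (r = 0.247, 0.612 and 0.452 for numbers 1, 2 and 3). Number 2 correlated negatively with numbers 1 and 3 (r = -0.295 to -0.506), while numbers 1 and 3 correlated at 0.134 and 0.161 with each other. Deviations from a group mean cancel out within the group, so negative values follow in part from the way they are computed. Many counts are therefore also given without the 9 libraries numbered 2, a fit chosen after the data were seen. That fit has fewer libraries at each time point and so less power to call a gene. Whether a call lost in it rested on the libraries numbered 2 or on this loss of power was not tested.

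No clock gene passed the test between 48 h and 24 h in the main fit, which leaves out the replicate number. Of 20 tested, 0 were called by edgeR and 0 by DESeq2, against 3.92% of all genes tested by edgeR, and 4 had an unadjusted p under 0.05. With the replicate number as a block 1 rose and 2 fell, against 6.61% and 4.31% of all genes in that fit. Per2, the period gene that sets the phase in many tissues, was at 14.4, 13.7 and 17.8 CPM at 48 h, against 15.5, 13.2 and 16.3 CPM at 24 h. The libraries of both times overlap fully, and the log2 fold change was 0.03 ± 0.15 (SE, 95% interval -0.29 to 0.35). Per1 was at 11.6, 7.63 and 14.2 CPM at 48 h, against 11.8, 8.02 and 13.5 CPM at 24 h, and in each time point its library numbered 2 was the lowest. Its log2 fold change was 0.00 ± 0.29 (95% interval -0.59 to 0.60), a wide interval that holds changes in either direction. Per3 (-0.12 ± 0.19), Cry1 (-0.05 ± 0.08), Cry2 (-0.06 ± 0.18), Arntl (0.03 ± 0.10), Clock (-0.05 ± 0.09), Nr1d1 (0.02 ± 0.42), Nr1d2 (0.03 ± 0.09), Rora (-0.06 ± 0.20), Rorb (-0.14 ± 0.24), Npas2 (0.31 ± 0.48) and Ciart (0.05 ± 0.21) did not pass the test either, each given as a log2 fold change with its SE. The PAR bZIP activators that follow the core loop had log2 fold changes of -0.15 ± 0.09 (Dbp), -0.03 ± 0.09 (Tef) and -1.04 ± 0.49 (Hlf), and their antagonist Nfil3 one of 0.17 ± 0.09.

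The level at 36 h, midway between the harvests, shows what another phase looks like. Per2 averaged 15.3 ± 2.21 CPM at 48 h and 15.03 ± 1.59 CPM at 24 h (SD, n = 3 each), the highest 2 of the 9 time point means, and 7.94 ± 1.99 CPM at 36 h. At 36 h Per2 was lower than at 24 h by a log2 fold change of -0.92 ± 0.16 (edgeR adjusted p = 0.0019), and at 48 h it was higher than at 36 h by 0.94 ± 0.16 (edgeR adjusted p = 0.00857). Dbp, a direct CLOCK target, moved in the same way, with log2 fold changes of -0.99 ± 0.10 for 36 h over 24 h (edgeR adjusted p = 1.09e-06) and 0.84 ± 0.10 for 48 h over 36 h (edgeR adjusted p = 0.000152). For Nr1d2 the log2 fold changes were -0.43 ± 0.09 and 0.46 ± 0.09 (edgeR adjusted p = 0.0116 and 0.0365).

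**Figure D1:**
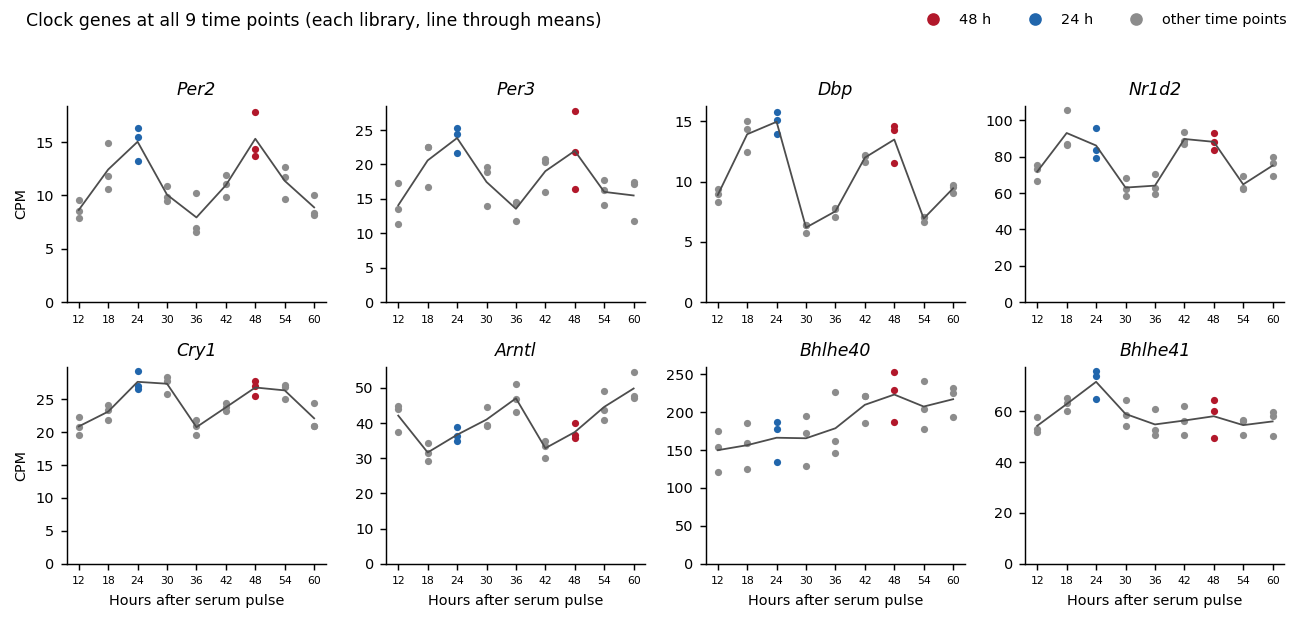
Level of 8 clock genes in CPM (vertical axes, from 0) against hours after the serum pulse, with 1 point per library and a line through the means of 3. The points of 48 h (red) and 24 h (blue) overlap for Per2, Per3, Dbp, Nr1d2, Cry1 and Arntl, with the trough of Per2 at 36 h between them, while the points of Bhlhe41 do not overlap.

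Bhlhe40 and Bhlhe41, of the clock list, each passed the test in 1 of 14 alternatives, the fit with the replicate number as a block. Bhlhe40 and Bhlhe41 encode basic helix-loop-helix repressors that compete with CLOCK and BMAL1 at E-boxes and also answer to serum, hypoxia and differentiation. Bhlhe40 was at 229, 187 and 252 CPM at 48 h, against 178, 134 and 187 CPM at 24 h, and it was higher at 48 h in each of the 3 same-numbered pairs although the groups nearly meet. Its log2 fold change was 0.42 ± 0.19, with an edgeR adjusted p of 0.299 and of 0.00636 with the block. Bhlhe41 went the other way, with 64.4, 49.6 and 60.1 CPM at 48 h, against 75.9, 64.8 and 73.9 CPM at 24 h, and its groups do not overlap. Its log2 fold change was -0.30 ± 0.10, with an edgeR adjusted p of 0.116 and of 0.00107 with the block. Over all alternatives the adjusted p ran from 0.00636 to 0.675 for Bhlhe40 and 0.00107 to 0.448 for Bhlhe41.

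Across all genes, 343 were higher at 48 h than at 24 h and 154 were lower, which is 2.70% and 1.21% of those tested. The changes were moderate. Of the 343 genes that rose, 45 rose at least 2-fold and 143 at least 1.5-fold, with a median log2 fold change of 0.52, and of the 154 that fell, 22 fell at least 2-fold and 62 at least 1.5-fold, with a median of -0.49. The smallest changes called were 0.20 upward and 0.17 downward on the log2 scale. The median log2 fold change of all genes was -0.0047 and the median of its size 0.102. In 340 of the 343 and in 152 of the 154 genes the 3 libraries of 48 h did not overlap those of 24 h, as they also did not for 8.96% (higher) and 7.13% (lower) of all genes tested. The count depends on how the replicate number is treated. With the number as a block, 838 genes rose (6.61%) and 547 fell (4.31%), the 343 and the 154 among them. Without the 9 libraries numbered 2 the counts were 152 (1.19%) and 60 (0.471%), of which 137 and 58 belong to the first lists. From the 6 libraries alone 77 rose and 40 fell, and 42 of the 115 called genes named in the text lost their call in that fit. Leaving out replicate 1 of 24 h left 223 genes higher, and leaving out replicate 2 of 24 h left 99 lower.

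**Figure D2:**
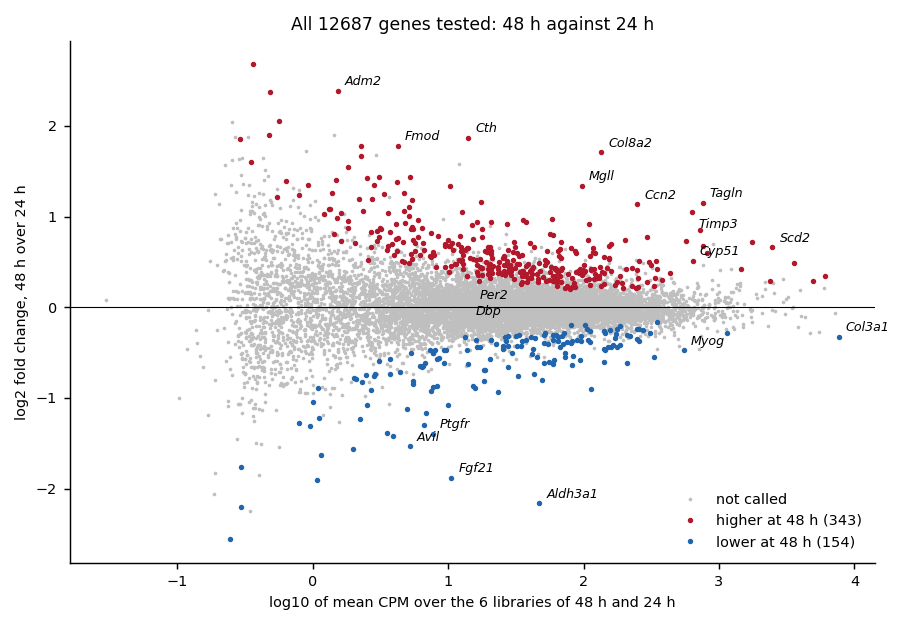
Log2 fold change of 48 h over 24 h (vertical axis) against the log10 of the mean CPM of the 6 libraries (horizontal axis), with 1 point per gene tested. The 343 genes higher at 48 h (red) and the 154 lower (blue) lie on both sides of 0 at all levels, and Per2 and Dbp lie among the genes not called.

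Among the 15 largest rises was that of Col8a2. This gene of the alpha 2 chain of the network-forming collagen VIII (chromosome 4, 126286793 to 126314330, plus strand, mm10) was at 184, 219 and 218 CPM at 48 h, against 59.5, 63.2 and 67.2 CPM at 24 h. Every library of 48 h was thus above every library of 24 h, with a 3.27-fold rise (log2 fold change 1.71 ± 0.08, edgeR adjusted p = 6.85e-12). Fmod, the collagen-binding proteoglycan fibromodulin, was at 7.26, 5.30 and 7.22 CPM at 48 h, against 1.98, 1.34 and 2.39 CPM at 24 h, a log2 fold change of 1.78 ± 0.23 (edgeR adjusted p = 3.49e-05). Mgll, monoglyceride lipase, which splits monoglycerides and the endocannabinoid 2-arachidonoylglycerol, was at 133, 138 and 144 CPM at 48 h, against 51.2, 53.2 and 59.6 CPM at 24 h, a 2.53-fold rise with little spread (log2 fold change 1.34 ± 0.07, edgeR adjusted p = 5.11e-11). Crispld2, a secreted protein, and Tnfrsf11b, the decoy receptor osteoprotegerin, both rose by a log2 fold change of 1.43 (SE 0.15 and 0.19). Matn3, the matrix adaptor matrilin-3 (1.40 ± 0.21), rose from a low level at 24 h. Asprv1, an aspartic protease (1.38 ± 0.20), Adgrf5, an adhesion receptor (1.43 ± 0.24), Mtus2 (1.67 ± 0.22), Fam84b (1.55 ± 0.26) and Wdr95 (1.77 ± 0.31) were also among the 15 largest, together with Adm2, Cth and Slc7a11, which are described with the ATF4 targets.

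Among the largest falls, Aldh3a1 stood first. It encodes an aldehyde dehydrogenase known as a target of the aryl hydrocarbon receptor (chromosome 11, 61207537 to 61218421, plus strand, mm10), and was at 16.8, 20.1 and 14.8 CPM at 48 h, against 59.9, 99.5 and 72.2 CPM at 24 h. It fell 4.48-fold (log2 fold change -2.16 ± 0.18, edgeR adjusted p = 7.73e-08), and the 24 h libraries differed more among themselves than those of 48 h. Ptgfr, the prostaglandin F receptor, was at 3.58, 4.98 and 4.18 CPM at 48 h, against 11.9, 9.78 and 11.8 CPM at 24 h, a log2 fold change of -1.39 ± 0.20 (edgeR adjusted p = 0.00012). Scara5, a scavenger receptor that takes up ferritin, was at 1.18, 1.01 and 0.837 CPM at 48 h, against 2.64, 3.00 and 3.25 CPM at 24 h, a log2 fold change of -1.56 ± 0.22 (edgeR adjusted p = 8.41e-05). Avil, the actin-severing protein advillin, was at 2.62, 2.76 and 2.64 CPM at 48 h, against 6.36, 9.78 and 7.18 CPM at 24 h, a log2 fold change of -1.53 ± 0.17 (edgeR adjusted p = 3.06e-06). Vegfd, a growth factor for lymphatic vessels (-1.12 ± 0.18), Ifitm1 (-1.17 ± 0.22) and the calcium-binding membrane protein gene Mctp2 (-1.08 ± 0.19) also fell, with edgeR adjusted p of 0.000378, 0.0024 and 0.00139, the last at 0.0863 without the libraries numbered 2 (0.000127 to 0.11 over all alternatives). Try5 (-1.90 ± 0.32), Prl2c3 (-1.30 ± 0.25) and Serpinb9d (-1.23 ± 0.31) belong to families of near-identical copies between which reads may be divided, so their values are uncertain, and Serpinb9d lost its call without any 1 library but replicate 2 of 48 h (edgeR adjusted p 0.0529 to 0.137). The remaining 5 of the 15, Fgf21, Ccl5, Ifit1, Cxcl5 and Irf7, are described with their groups.

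**Figure D3:**
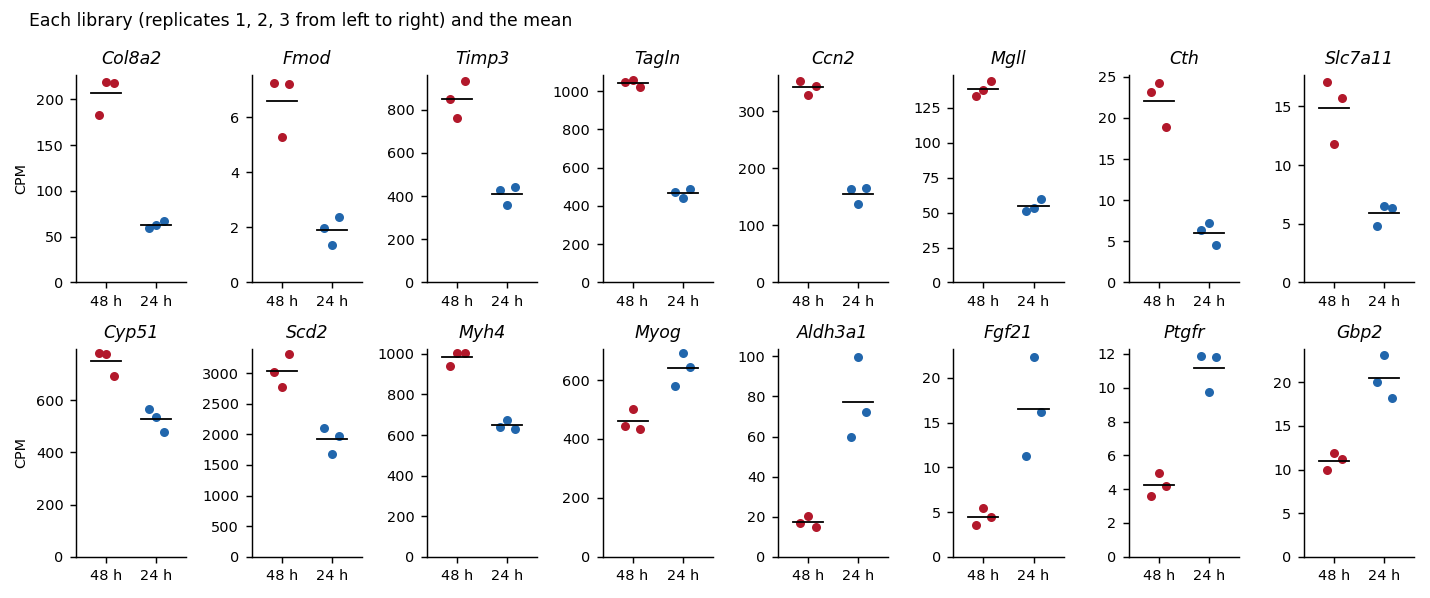
Level in CPM of 16 genes in each library of 48 h (left, red) and of 24 h (right, blue), with the mean as a bar and axes from 0. In all 16 genes the 3 libraries of one time point lie apart from the 3 of the other, among them Col8a2 with 184 to 219 CPM at 48 h against 59.5 to 67.2 CPM at 24 h.

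Some collagen and other matrix genes rose. Of 21 collagen genes tested, 4 rose (19.0%, against 2.70% of all genes) and 1 fell (4.76%, against 1.21%), with a median log2 fold change of 0.26, against -0.0047 over all genes. Of 47 other matrix genes 13 rose (27.7%) and 1 fell (2.13%), with a median of 0.20. The log2 fold change was negative in 4 of the 21 collagens and in 18 of the 47 other genes. The summed levels overlapped between the times. They were 19300 to 23400 CPM at 48 h and 19500 to 21500 CPM at 24 h for the collagens. For the other matrix genes they were 30600 to 38300 CPM at 48 h and 26500 to 33100 CPM at 24 h. The short-chain collagen VIII rose in both chains, since Col8a1 was at 674, 675 and 773 CPM at 48 h, against 426, 411 and 439.9 CPM at 24 h. Col8a1 had a log2 fold change of 0.73 ± 0.06 (edgeR adjusted p = 1.74e-07). Col11a1, which nucleates thin fibrils, was at 24.1, 23.8 and 27.2 CPM at 48 h, against 16.4, 15.8 and 16.7 CPM at 24 h. Col11a1 had a log2 fold change of 0.62 ± 0.12 (edgeR adjusted p = 0.00184). Col3a1, a chain of the large fibrils, fell, with 6265, 7022 and 7123 CPM at 48 h, against 8149, 8657 and 8746 CPM at 24 h, a log2 fold change of -0.32 ± 0.06 (edgeR adjusted p = 0.00202). Timp3, a matrix-bound inhibitor of metalloproteinases, was at 849.7, 760.2 and 934 CPM at 48 h, against 427, 357 and 444 CPM at 24 h, a 2.07-fold rise (log2 fold change 1.05 ± 0.11, edgeR adjusted p = 2.16e-06). Fbln5, which organises elastic fibres, was at 143, 146 and 142 CPM at 48 h, against 90.8, 97.5 and 86.7 CPM at 24 h and differed little between libraries (log2 fold change 0.65 ± 0.06, edgeR adjusted p = 3.41e-07). Tnc, the adhesion-modulating glycoprotein tenascin C, was at 1971, 2077 and 2522 CPM at 48 h, against 1321, 1206 and 1469 CPM at 24 h. Tnc had a log2 fold change of 0.72 ± 0.10 (edgeR adjusted p = 8.11e-05). With the replicate number as a block 10 collagens and 22 other matrix genes rose, and without the libraries numbered 2 the counts were 4 and 9, with 3 and 5 from the 6 libraries alone.

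Genes of the contractile apparatus of smooth muscle, which immature and stressed mesenchymal cells also express under serum response factor and its actin-sensing cofactors, rose in part. Of 10 tested, 5 rose (50.0%, against 2.70% of all genes) and 0 fell (median log2 fold change 0.40), and the counts were the same with the block and without the libraries numbered 2. Tagln, the actin-binding protein SM22, was at 1050.0, 1056 and 1023 CPM at 48 h, against 473, 442 and 491 CPM at 24 h, a 2.23-fold rise in which the groups lie far apart (log2 fold change 1.15 ± 0.08, edgeR adjusted p = 1.33e-09). Cnn1, calponin 1, was at 43.6, 57.6 and 46.0 CPM at 48 h, against 27.2, 27.3 and 22.4 CPM at 24 h. Cnn1 had a log2 fold change of 0.94 ± 0.12 (edgeR adjusted p = 4.23e-05). Actg2, the smooth muscle gamma actin, was at 336, 421 and 355 CPM at 48 h, against 227, 218 and 204 CPM at 24 h. Actg2 had a log2 fold change of 0.78 ± 0.09 (edgeR adjusted p = 1.14e-05). Mcam, the adhesion molecule CD146, was at 19.3, 19.2 and 19.9 CPM at 48 h, against 10.9, 10.4 and 9.95 CPM at 24 h. Mcam had a log2 fold change of 0.90 ± 0.08 (edgeR adjusted p = 3.41e-07). The summed level of the 10 genes tested was 8660 to 9620 CPM at 48 h and 6840 to 7360 CPM at 24 h. In a bulk culture of myotubes and unfused cells, more cells of a kind and more RNA per cell cannot be told apart. Of 7 tendon and fibroblast markers tested 0 rose and 2 fell (28.6%, against 1.21% of all genes). These were the platelet-derived growth factor receptor gene Pdgfra (21.9, 24.2 and 24.5 CPM at 48 h, against 32.2, 31.2 and 31.3 CPM at 24 h, log2 fold change -0.42 ± 0.08, edgeR adjusted p = 0.0026 and 0.057 without the libraries numbered 2) and the matrix protein gene Dpt (-1.04 ± 0.26, edgeR adjusted p = 0.0204). Dpt lost its call without replicate 1 (0.0671) or 2 (0.0943) of 24 h or replicate 3 of 48 h (0.198). The adjusted p ran from 8.03e-05 to 0.103 for Pdgfra and from 0.0103 to 0.274 for Dpt over all alternatives. The summed level of the 7 markers tested was 792 to 857 CPM at 48 h and 811 to 880 CPM at 24 h. Of 5 bone and cartilage markers tested, 1 rose (20.0%, against 2.70% of all genes) and 0 fell. It was Dmp1 (1.08 ± 0.24, edgeR adjusted p = 0.00991, 0.065 without replicate 2 of 24 h and 0.00249 to 0.2 over all alternatives). The summed level of the 5 markers was 2180 to 2790 CPM at 48 h and 1820 to 2140 CPM at 24 h.

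Targets of YAP and genes of TGF beta and Wnt signalling moved in part. Of 15 YAP targets tested, genes driven by the tension-sensing coactivator YAP, 3 rose (20.0%, against 2.70% of all genes) and 1 fell (6.67%, against 1.21%), with a median log2 fold change of 0.11 (6 rose with the block). Ccn2, the connective tissue growth factor, was at 354, 328 and 344 CPM at 48 h, against 164, 138 and 165 CPM at 24 h, a 2.20-fold rise with no overlap (log2 fold change 1.14 ± 0.10, edgeR adjusted p = 3.41e-07). Ccn1 was at 247, 281 and 235 CPM at 48 h, against 158, 144 and 153 CPM at 24 h. Ccn1 had a log2 fold change of 0.74 ± 0.09 (edgeR adjusted p = 7.27e-06). Nt5e, the ectonucleotidase CD73, rose (0.62 ± 0.11, edgeR adjusted p = 0.00146), whereas F3, tissue factor, fell with 6.68, 7.05 and 5.68 CPM at 48 h, against 14.4, 16.0 and 10.4 CPM at 24 h. F3 had a log2 fold change of -1.07 ± 0.16 (edgeR adjusted p = 0.000142). Of 25 genes of TGF beta and activin signalling 6 rose (24.0%) and 1 fell (4.0%; median 0.16; 10 rose with the block and 2 from the 6 libraries alone). The BMP antagonist Grem1 rose (0.39 ± 0.08, edgeR adjusted p = 0.00249) and the BMP target Id3 fell (-0.51 ± 0.10, edgeR adjusted p = 0.00363). Of 19 Wnt pathway genes 5 rose (26.3%) and 1 fell (5.26%; median 0.09; 2 and 0 without the libraries numbered 2), among them the ligand Wnt11 (0.96 ± 0.19, edgeR adjusted p = 0.00271, and 0.0903 without the libraries numbered 2, 6.81e-05 to 0.0903 over all alternatives) and the feedback inhibitor Nkd2 (0.42 ± 0.07, edgeR adjusted p = 0.00111). The EGF receptor ligands Hbegf, at 83.4, 86.7 and 75.5 CPM at 48 h, against 48.8, 55.6 and 53.0 CPM at 24 h (0.64 ± 0.10, edgeR adjusted p = 0.000222), and Ereg (0.62 ± 0.11, edgeR adjusted p = 0.000799) rose. They are 2 of the 3 genes that rose among 16 of the ERK pathway tested (18.8%; 6 with the block). Of 22 immediate early factors 1 rose and 0 fell, a share of 4.55% that is near the 2.70% of all genes (5 rose with the block). It was the survival gene Ier3 (0.48 ± 0.09, edgeR adjusted p = 0.00253, 0.0946 without the libraries numbered 2 and 1.52e-05 to 0.0981 over all alternatives).

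Some genes of lipid synthesis rose. Of 26 genes of cholesterol synthesis and uptake tested, 10 rose and 0 fell (38.5%, against 2.70% of all genes; median log2 fold change 0.23), and of 18 fatty acid synthesis genes 5 rose (27.8%) and 0 fell (median 0.24). These genes answer to the SREBP factors, which are activated when cells lack sterols. Cyp51, the lanosterol demethylase, was at 781, 777 and 693 CPM at 48 h, against 567, 534 and 478 CPM at 24 h. Cyp51 had a log2 fold change of 0.51 ± 0.09 (edgeR adjusted p = 0.00139). Nsdhl, which acts after it, was at 127, 129 and 131 CPM at 48 h, against 103, 94.1 and 91.5 CPM at 24 h. Nsdhl had a log2 fold change of 0.42 ± 0.06 (edgeR adjusted p = 0.000138). Tm7sf2, a sterol reductase, was at 19.4, 20.3 and 17.3 CPM at 48 h, against 10.3, 11.9 and 11.6 CPM at 24 h. Tm7sf2 had a log2 fold change of 0.75 ± 0.11 (edgeR adjusted p = 0.000125). In none of these 3 genes did the groups overlap. Scd2, the desaturase that makes monounsaturated fatty acids, was at 3021, 2766 and 3315 CPM at 48 h, against 2100.0, 1674 and 1981 CPM at 24 h. Scd2 had a log2 fold change of 0.66 ± 0.11 (edgeR adjusted p = 0.00069). Fads2, a desaturase of polyunsaturated ones, was at 164, 159 and 186 CPM at 48 h, against 115, 114 and 118 CPM at 24 h. Fads2 had a log2 fold change of 0.55 ± 0.08 (edgeR adjusted p = 0.000111). Acss2, which makes acetyl-CoA from acetate (0.61 ± 0.09, edgeR adjusted p = 0.000108), and Srebf1, the gene of SREBP1 itself (0.53 ± 0.11, edgeR adjusted p = 0.00643, 0.0626 without replicate 2 of 24 h, 0.0598 without replicate 3 of 48 h and 9.92e-07 to 0.0903 over all alternatives), also rose. Of 30 fatty acid oxidation genes 0 rose and 1 fell (3.33%, against 1.21% of all genes). It was Cpt1a, which admits fatty acids to the mitochondrion, at 49.6, 40.3 and 49.5 CPM at 48 h, against 69.6, 67.5 and 78.3 CPM at 24 h. Cpt1a had a log2 fold change of -0.63 ± 0.11 (edgeR adjusted p = 0.00078). The cholesterol count was 14 with the replicate number as a block, 6 without the libraries numbered 2 and 2 from the 6 libraries alone, and the fatty acid count 10, 6 and 2 in the same order.

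ATF4 is the transcription factor that cells induce when amino acids run short or the endoplasmic reticulum is stressed, and it drives amino acid transport and synthesis. Of 37 of its targets tested 12 rose (32.4%, against 2.70% of all genes) and 1 fell (2.70%, against 1.21%), with a median log2 fold change of 0.25, and without the libraries numbered 2 the counts were 9 and 1. Atf4 itself was at 396, 406 and 399 CPM at 48 h, against 271, 292 and 281 CPM at 24 h, with libraries that barely differ within a time point (log2 fold change 0.51 ± 0.06, edgeR adjusted p = 1.28e-05). Cth, cystathionine gamma-lyase, which makes cysteine, was at 23.1, 24.3 and 18.9 CPM at 48 h, against 6.36, 7.19 and 4.59 CPM at 24 h, a 3.65-fold rise with no overlap (log2 fold change 1.87 ± 0.17, edgeR adjusted p = 2.45e-07). Slc7a11, the cystine importer, was at 17.1, 11.8 and 15.7 CPM at 48 h, against 4.83, 6.52 and 6.36 CPM at 24 h. Slc7a11 had a log2 fold change of 1.34 ± 0.18 (edgeR adjusted p = 5.48e-05). Pck2, the mitochondrial phosphoenolpyruvate carboxykinase, was at 79.7, 87.4 and 88.6 CPM at 48 h, against 51.7, 51.9 and 52.3 CPM at 24 h. Pck2 had a log2 fold change of 0.71 ± 0.08 (edgeR adjusted p = 2.55e-06). Adm2, the peptide hormone intermedin, is not on the list and had the largest rise of all genes named, with 2.30, 2.86 and 2.51 CPM at 48 h, against 0.330, 0.621 and 0.526 CPM at 24 h, a 5.23-fold rise (log2 fold change 2.39 ± 0.36, edgeR adjusted p = 0.000164). In the other direction Fgf21, the stress hormone that ATF4 induces in muscle, fell 3.69-fold, with 3.52, 5.41 and 4.49 CPM at 48 h, against 11.2, 22.3 and 16.2 CPM at 24 h (log2 fold change -1.88 ± 0.24, edgeR adjusted p = 3.99e-05), and its 24 h libraries spread more widely than those of 48 h. Of 22 genes of the unfolded protein response 1 rose and 0 fell, again 4.55% and near the 2.70% of all genes. It was the chaperone gene Hyou1 (0.22 ± 0.06, edgeR adjusted p = 0.0486), which lost its call without any 1 of the 6 libraries (0.0697 to 0.251; 0.0042 to 0.347 over all alternatives).

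Promoter windows of these genes are shown because they carry the letters TGATGNAA of the C/EBP-ATF response element, the element that ATF4 binds, in genes that moved in opposite directions. The windows run from 250 bases before to 50 after the start of transcription and come from RefSeq on GRCm38.p6, which is mm10, with a window for 9972 of the genes tested. Capitals mark TGATGNAA or its reverse complement.
Trib3, chr2:152344011-152344310, minus strand: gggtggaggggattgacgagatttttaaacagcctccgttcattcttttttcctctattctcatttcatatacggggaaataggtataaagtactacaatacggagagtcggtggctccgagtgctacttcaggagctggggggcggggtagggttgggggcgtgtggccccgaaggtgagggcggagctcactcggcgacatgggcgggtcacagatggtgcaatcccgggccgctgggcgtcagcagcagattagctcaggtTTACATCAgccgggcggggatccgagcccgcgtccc
Slc7a11, chr3:50443564-50443863, minus strand: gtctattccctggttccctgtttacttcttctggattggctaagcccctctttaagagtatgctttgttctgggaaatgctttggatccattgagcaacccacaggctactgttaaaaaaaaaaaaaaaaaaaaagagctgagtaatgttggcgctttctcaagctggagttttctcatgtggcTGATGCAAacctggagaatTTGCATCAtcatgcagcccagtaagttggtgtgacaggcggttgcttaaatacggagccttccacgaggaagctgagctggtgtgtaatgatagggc
Pck2, chr14:55540016-55540315, plus strand: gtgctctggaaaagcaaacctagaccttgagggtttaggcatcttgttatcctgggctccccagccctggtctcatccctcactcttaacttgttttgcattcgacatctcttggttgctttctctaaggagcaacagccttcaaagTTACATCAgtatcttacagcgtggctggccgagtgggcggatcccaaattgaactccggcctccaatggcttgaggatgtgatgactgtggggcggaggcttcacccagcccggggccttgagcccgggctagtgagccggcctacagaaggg
Fgf21, chr7:45615441-45615740, minus strand: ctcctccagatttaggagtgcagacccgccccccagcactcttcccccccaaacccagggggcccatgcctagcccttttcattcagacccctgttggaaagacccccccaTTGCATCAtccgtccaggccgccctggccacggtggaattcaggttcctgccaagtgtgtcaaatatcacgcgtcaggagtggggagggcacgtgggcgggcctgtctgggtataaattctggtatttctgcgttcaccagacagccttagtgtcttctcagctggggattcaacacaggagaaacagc

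The motif was chosen after the calls were seen. It stood in 2.31% of all 12785 windows of genes tested, in 29.7% of the 37 windows of ATF4 targets tested, in 5.36% of the 336 windows of genes that rose and in 5.49% of the 164 windows of genes that fell. Of the 13 windows of ATF4 targets that were called, 8 held it, those of Aars, Chac1, Fgf21, Pck2, Slc1a4, Slc7a11, Trib3 and Vldlr. Trib3, a pseudokinase that ATF4 induces and that was picked for its window, was at 23.9, 25.2 and 23.4 CPM at 48 h, against 8.67, 13.8 and 10.1 CPM at 24 h. Trib3 had a log2 fold change of 1.16 ± 0.15 (edgeR adjusted p = 4.23e-05). Slc7a11, with 2 matches in its window, rose, while Fgf21, with 1, fell. A match is a description of the letters and does not show binding.

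Most genes of the interferon response had a negative log2 fold change, and few of them passed the test. Of 41 tested 0 rose and 3 fell (7.32%, against 1.21% of all genes; 5 with the block, 1 without the libraries numbered 2), while 36 of the 41 had a negative log2 fold change (median -0.27). Gbp2, a guanylate-binding GTPase that interferon gamma induces, was at 9.99, 11.9 and 11.2 CPM at 48 h, against 20.0, 23.2 and 18.2 CPM at 24 h with no overlap (log2 fold change -0.89 ± 0.18, edgeR adjusted p = 0.00429). Reads of Gbp2 and its neighbour and close relative Gbp2b may be confused. Irf7, the factor that amplifies type I interferon, was at 1.07, 0.848 and 2.03 CPM at 48 h, against 2.93, 2.54 and 4.02 CPM at 24 h (-1.23 ± 0.29, edgeR adjusted p = 0.0147), and lost the call without replicate 3 of 24 h (0.100), replicate 1 of 48 h (0.0818) or replicate 2 of 48 h (0.0933). Ifit1, which binds viral RNA, was at 1.23, 2.33 and 2.82 CPM at 48 h, against 6.40, 5.43 and 5.45 CPM at 24 h (-1.42 ± 0.38, edgeR adjusted p = 0.0357), and leaving out any 1 library but replicate 3 of 48 h ended its call (0.0744 to 0.179), as did the fits with limma-voom (0.076) and without a filter (0.0536). Over all alternatives the adjusted p was 0.00176 to 0.168 for Irf7 and 0.00389 to 0.179 for Ifit1. Of 12 genes of MHC class I presentation tested 0 were called by edgeR and 0 by DESeq2, against 3.92% of all genes by edgeR. At an unadjusted p under 0.05 there were 3, and 3 fell with the block.

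The windows of Ifit1 and Gbp2 are shown because both carry the interferon-stimulated response element, searched on both strands as 2 copies of GAAA with 2 bases between them and marked in capitals.
Ifit1, chr19:34640639-34640938, plus strand: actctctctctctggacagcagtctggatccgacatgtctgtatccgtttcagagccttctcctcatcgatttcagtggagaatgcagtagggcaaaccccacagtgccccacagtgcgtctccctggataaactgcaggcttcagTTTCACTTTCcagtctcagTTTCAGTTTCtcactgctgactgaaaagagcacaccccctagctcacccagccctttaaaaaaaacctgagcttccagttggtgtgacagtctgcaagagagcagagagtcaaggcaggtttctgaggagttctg
Gbp2, chr3:142620413-142620712, plus strand: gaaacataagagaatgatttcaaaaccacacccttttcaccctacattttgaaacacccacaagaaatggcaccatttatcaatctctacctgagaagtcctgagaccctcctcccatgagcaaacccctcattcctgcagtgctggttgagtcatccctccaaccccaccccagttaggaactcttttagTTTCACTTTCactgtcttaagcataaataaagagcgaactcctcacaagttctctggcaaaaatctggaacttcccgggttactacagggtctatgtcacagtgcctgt

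This element stood in 3.03% of all windows of genes tested, in 55.6% of the 36 windows of interferon genes tested, in 9.76% of the 164 windows of genes that fell and in 3.87% of the 336 windows of genes that rose. Ifit1 holds it at 2 places and Gbp2 at 1. Of 5 other motifs searched on both strands, the E-box CACGTG stood in 10.4% of the windows of genes that rose and 10.4% of those that fell, against 9.75% of all. The D-box TTANNTAA stood in 3.27% and 6.10%, against 3.50%, and the cell cycle element TTTGAA in 10.4% and 11%, against 11.9%. The sterol element TCACNCCAC stood in 1.19% and 0.61%, against 1.13%, and the CArG box in 1.49% and 1.22%, against 1.33%.

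Chemokine and inflammation genes divided, with 3 of 23 tested higher (13.0%, against 2.70% of all genes) and 3 lower (13.0%, against 1.21%; 5 and 3 with the block). Cxcl14 was at 6.30, 7.47 and 8.59 CPM at 48 h, against 3.38, 2.74 and 3.68 CPM at 24 h. Cxcl14 had a log2 fold change of 1.19 ± 0.14 (edgeR adjusted p = 1.08e-05). Ptgs2, the inducible cyclooxygenase, was at 120.3, 101 and 98.5 CPM at 48 h, against 76.0, 69.8 and 64.9 CPM at 24 h. Ptgs2 had a log2 fold change of 0.60 ± 0.09 (edgeR adjusted p = 0.000142). The falls were in Cxcl5, which draws neutrophils, at 2.40, 2.12 and 1.37 CPM at 48 h, against 5.24, 5.43 and 4.54 CPM at 24 h (-1.38 ± 0.24, edgeR adjusted p = 0.00113), in Ccl9 (-0.92 ± 0.15, edgeR adjusted p = 0.000508) and in Ccl5, which draws lymphocytes, at 0.481, 0.530 and 0.661 CPM at 48 h, against 1.86, 1.76 and 1.63 CPM at 24 h (-1.63 ± 0.34, edgeR adjusted p = 0.00553, 0.0578 without the libraries numbered 2 and 0.000299 to 0.0578 over all alternatives).

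Few muscle differentiation genes passed the test. Of 20 myogenic factors and fusion genes tested, 0 rose and 2 fell (10.0%, against 1.21% of all genes; median -0.03). Myog, myogenin, which starts terminal differentiation, was at 445, 502 and 434 CPM at 48 h, against 581, 693 and 646 CPM at 24 h. Myog had a log2 fold change of -0.48 ± 0.07 (edgeR adjusted p = 0.000307). Mymx, the fusion peptide myomixer, was at 49.1, 44.5 and 39.7 CPM at 48 h, against 69.9, 63.8 and 68.8 CPM at 24 h. Mymx had a log2 fold change of -0.60 ± 0.09 (edgeR adjusted p = 0.00022). Neither shows an overlap between the groups. Of 50 sarcomere genes tested 4 rose (8.0%, against 2.70% of all genes) and 0 fell (median 0.03; 9 rose with the block), all of them myosin heavy chains or myosin-binding proteins. Myh4, the myosin heavy chain of the fastest fibres, was at 939.8, 1002 and 1006 CPM at 48 h, against 641, 673 and 631 CPM at 24 h. Myh4 had a log2 fold change of 0.60 ± 0.08 (edgeR adjusted p = 4.75e-05). Mybpc2, fast myosin-binding protein C, was at 102, 107 and 103 CPM at 48 h, against 64.4, 68.5 and 70.5 CPM at 24 h. Mybpc2 had a log2 fold change of 0.62 ± 0.06 (edgeR adjusted p = 4.33e-07). Its slow relative Mybpc1 (0.60 ± 0.13, edgeR adjusted p = 0.00719, 0.0685 without replicate 1 of 24 h and 0.0524 without replicate 1 of 48 h) and the fast chain Myh1, at 2604, 2582 and 2636 CPM at 48 h, against 2058, 2144 and 2190.0 CPM at 24 h (0.29 ± 0.07, edgeR adjusted p = 0.0155), also rose. Myh1 lost its call without the libraries numbered 2 (0.104) and without any 1 of replicates 1 and 2 of 24 h and 1 and 3 of 48 h (0.052 to 0.0872). Over all alternatives the adjusted p was 0.000792 to 0.176 for Mybpc1 and 0.00168 to 0.19 for Myh1. Of 19 genes of the triad and calcium handling 0 were called by edgeR in either direction, against 3.92% of all genes (1 by DESeq2 and 4 at an unadjusted p under 0.05). Of 13 genes of the acetylcholine receptor and synapse 0 were called by edgeR or DESeq2 and 0 had an unadjusted p under 0.05, while 2 fell with the block.

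Some DNA replication genes rose, and how many passed the test depends on the libraries fitted. Of 31 DNA replication genes tested 11 rose (35.5%, against 2.70% of all genes) and 0 fell, with a median log2 fold change of 0.30. Without the libraries numbered 2 the count was 1 while the median was 0.25, from the 6 libraries alone the count was 0 by edgeR with a median of 0.30, and with the block it was 21. Mcm5, a subunit of the replicative helicase, was at 72.0, 77.0 and 64.6 CPM at 48 h, against 51.5, 56.6 and 53.2 CPM at 24 h. Mcm5 had a log2 fold change of 0.41 ± 0.08 (edgeR adjusted p = 0.00259, 0.0217 without the libraries numbered 2 and 3.09e-06 to 0.145 over all alternatives). Mcm10, which joins the helicase to the polymerase, was at 17.1, 20.8 and 16.2 CPM at 48 h, against 12.9, 12.6 and 12.0 CPM at 24 h (0.53 ± 0.10, edgeR adjusted p = 0.00203, and 0.0775 without the libraries numbered 2). Mcm2 and the maintenance methylation factor gene Uhrf1 were highest in library 2 of 48 h, with 76.6, 96.6 and 85.1 CPM at 48 h, against 64.6, 65.2 and 70.3 CPM at 24 h for Mcm2 and 69.9, 87.8 and 81.7 CPM at 48 h, against 59.8, 56.1 and 62.0 CPM at 24 h for Uhrf1, and their edgeR adjusted p of 0.00431 and 0.00448 became 0.168 and 0.232 without the libraries numbered 2. Over all alternatives the adjusted p was 7.12e-05 to 0.13 for Mcm10, 0.000107 to 0.212 for Mcm2 and 0.000117 to 0.232 for Uhrf1. Of 30 mitosis genes 2 rose (6.67%; 8 with the block, 0 without the libraries numbered 2), the kinase genes Melk (0.50 ± 0.10, edgeR adjusted p = 0.00271, 0.0664 without those libraries and 2.84e-05 to 0.0927 over all alternatives) and Aurkb (0.36 ± 0.10, edgeR adjusted p = 0.0392, 0.232 without them and 0.00098 to 0.232 over all alternatives). Aurkb also lost its call without any 1 library but replicate 3 of 48 h (0.076 to 0.183) and without a filter (0.0599). Of 16 genes of the cell cycle exit list, which holds brakes of the cycle and the cyclin gene Ccnd1, 3 rose and 0 fell (18.8%, against 2.70% of all genes). The count was 1 without the libraries numbered 2 and 0 from the 6 libraries alone. In the list 9 of the 16 had a negative log2 fold change (median -0.04). Ccnd1, the cyclin that serum induces in G1, was at 115, 119 and 116 CPM at 48 h, against 88.1, 91.3 and 86.0 CPM at 24 h, and its rise held without the libraries numbered 2 (0.40 ± 0.06, edgeR adjusted p = 8.58e-05 and 0.00549). Of the 22 genes of the histone list 1 rose (4.55%, against 2.70% of all genes), and 5 with the block. It was H1f0 (251, 274 and 267 CPM at 48 h, against 202, 188 and 197 CPM at 24 h, log2 fold change 0.43 ± 0.06, edgeR adjusted p = 0.000111), a linker histone that is made outside replication and marks cells at rest. In the list 21 of the 22 had a positive log2 fold change (median 0.33), and 7 had an unadjusted p under 0.05. The summed level of the list was 1660 to 2110 CPM at 48 h and 1360 to 1530 CPM at 24 h.

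Of 31 glycolysis and glycogen genes 4 rose (12.9%, against 2.70% of all genes) and 0 fell (median 0.14; 11 with the block and 2 without the libraries numbered 2). Pfkp, the platelet-type phosphofructokinase, was at 147, 166 and 153 CPM at 48 h, against 112, 126 and 118 CPM at 24 h. Pfkp had a log2 fold change of 0.39 ± 0.06 (edgeR adjusted p = 0.000223). Slc2a3, a high-affinity glucose transporter, was at 8.65, 7.69 and 6.43 CPM at 48 h, against 4.67, 4.71 and 3.88 CPM at 24 h. Slc2a3 had a log2 fold change of 0.78 ± 0.15 (edgeR adjusted p = 0.00231). Of 15 hypoxia targets 1 rose, a single call (6.67%; 6 with the block, 0 without the libraries numbered 2), in the vascular growth factor gene Vegfa (0.44 ± 0.10, edgeR adjusted p = 0.0109, 0.101 without those libraries and 0.000227 to 0.144 over all alternatives). It also lost its call without replicate 1 of 24 h (0.0915) and without replicate 3 of 48 h (0.0595). Among 29 myokine and growth factor genes 4 rose (13.8%) and 2 fell (6.90%, against 1.21% of all genes). The counts were 8 and 3 with the block, and 1 and 2 without the libraries numbered 2. The growth factor gene Pdgfa was at 97.7, 96.6 and 99.0 CPM at 48 h, against 57.8, 62.7 and 66.7 CPM at 24 h (0.65 ± 0.10, edgeR adjusted p = 0.000225) and Igfbp3, which binds insulin-like growth factors, at 3.95, 4.13 and 3.44 CPM at 48 h, against 1.32, 1.45 and 2.25 CPM at 24 h (1.20 ± 0.23, edgeR adjusted p = 0.00259, 0.0929 without those libraries and 7.68e-05 to 0.0929 over all alternatives). Hgf, the growth factor that activates satellite cells, fell, with 24.2, 23.6 and 25.1 CPM at 48 h, against 42.9, 42.8 and 37.6 CPM at 24 h. Hgf had a log2 fold change of -0.76 ± 0.11 (edgeR adjusted p = 0.000129). Of 23 genes of the NRF2 and glutathione list 1 rose (4.35%), the Slc7a11 described with the ATF4 targets, and 2 fell (8.70%). Nqo1, a quinone reductase, was at 15.3, 19.1 and 13.8 CPM at 48 h, against 27.2, 37.7 and 27.5 CPM at 24 h. Nqo1 had a log2 fold change of -0.94 ± 0.18 (edgeR adjusted p = 0.00247). Gstm1, a glutathione transferase, was at 12.4, 12.5 and 14.8 CPM at 48 h, against 23.6, 23.4 and 23.2 CPM at 24 h. Gstm1 had a log2 fold change of -0.82 ± 0.11 (edgeR adjusted p = 6.91e-05). Lower in 3 more lists were Glul, glutamine synthetase, at 94.8, 94.5 and 92.9 CPM at 48 h, against 122, 117 and 122 CPM at 24 h (-0.36 ± 0.06, edgeR adjusted p = 0.000307), the p53 and FOXO target Sesn1, at 57.7, 68.2 and 55.9 CPM at 48 h, against 84.1, 93.3 and 80.0 CPM at 24 h (-0.50 ± 0.10, edgeR adjusted p = 0.00454), and the heat shock gene Hspa1b (-0.52 ± 0.12, edgeR adjusted p = 0.0119, 0.106 without the libraries numbered 2 and 0.00205 to 0.106 over all alternatives). Hspa1b also lost its call without replicate 1 of 24 h (0.0709) and without replicate 2 of 48 h (0.0643). Each was a single fall in its list, against 1.21% of all genes. Of 15 glucocorticoid targets tested 1 rose (6.67%, against 2.70%) and 1, Glul, fell (6.67%). Of 22 atrophy and autophagy genes 0 rose and Sesn1 fell (4.55%). Of 21 heat shock and cold-inducible genes 0 rose and Hspa1b fell (4.76%). The list medians were -0.02, -0.01 and -0.05 in that order.

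In large housekeeping groups no gene was called. Of 34 cytosolic ribosomal protein genes and 36 respiratory chain genes 0 were called by edgeR or DESeq2 in either direction, against 3.92% of all genes by edgeR, with median log2 fold changes of -0.14 and -0.04. At an unadjusted p under 0.05 there were 6 and 0. With the block 6 ribosomal protein genes and 2 respiratory chain genes fell. The ribosomal genes had a negative log2 fold change in 26 of 34.

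The library group at 36 h, which belongs to neither time point, divides the 24 h into 2 legs. It lies at another clock phase. Of 20 clock genes tested, 5 fell from 24 h to 36 h and 3 rose from 36 h to 48 h. Within a leg, change with the clock phase and lasting change cannot be told apart, so the legs do not date the drift. The genes higher at 48 h had already gained a median of 0.36 on the log2 scale by 36 h and gained 0.14 from 36 h to 48 h. For the lower genes the medians were -0.28 and -0.20. These 2 legs share the 36 h libraries and their ends are those of the comparison itself, so the medians are a description. At 36 h 180 genes were higher (1.42%) and 56 lower (0.441%) than at 24 h, and at 48 h 13 were higher (0.102%) and 8 lower (0.0631%) than at 36 h. Some genes kept moving in the later leg. Fbln5 rose by 0.28 ± 0.06 by 36 h and by 0.36 ± 0.06 from 36 h to 48 h (edgeR adjusted p = 0.00918 and 0.00796), Mybpc2 by 0.27 ± 0.06 and 0.35 ± 0.06 (0.0135 and 0.00857) and Pck2 by 0.32 ± 0.08 and 0.39 ± 0.08 (0.026 and 0.0329). Aldh3a1 and Avil had log2 fold changes of -1.98 ± 0.18 and -1.75 ± 0.17 for 36 h over 24 h, and of -0.18 ± 0.18 and 0.22 ± 0.19 for 48 h over 36 h, of which the later pair did not pass the test.

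**Figure D4:**
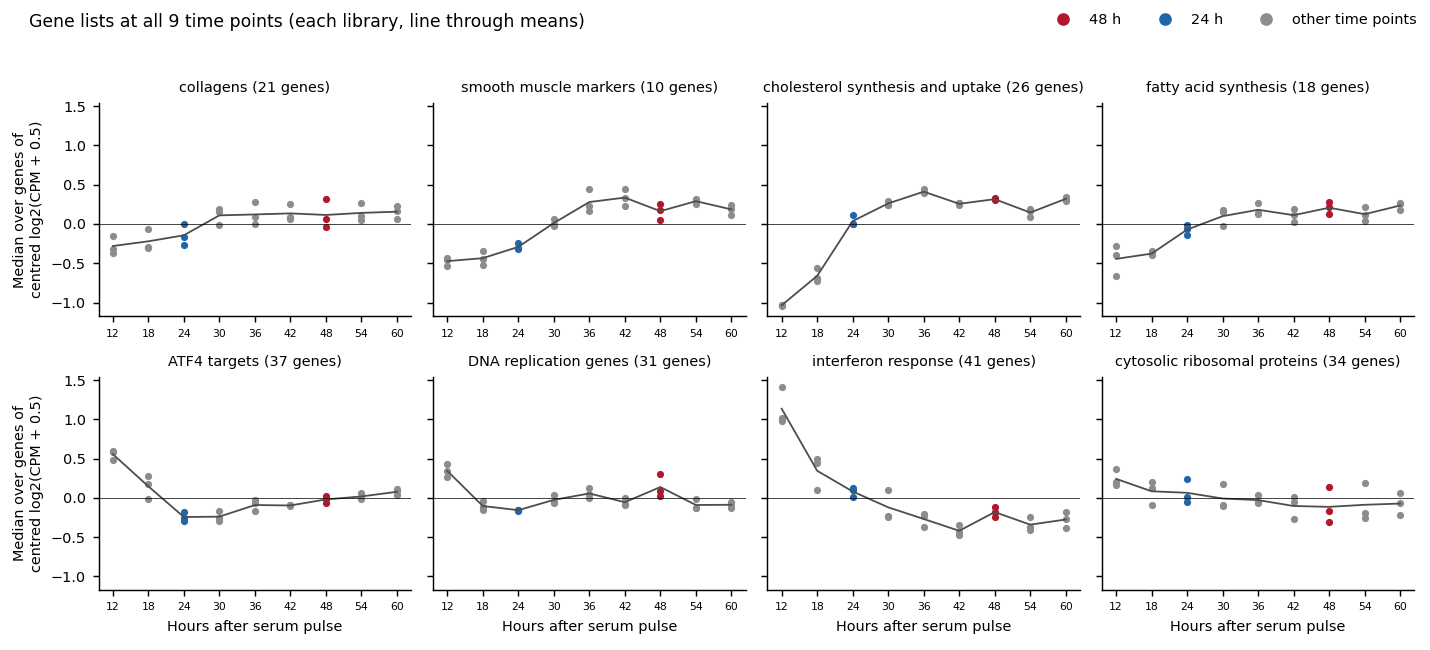
Median over the genes of 8 lists of log2(CPM + 0.5), centred for each gene on its mean over 27 libraries (vertical axis), against hours after the serum pulse, with 1 point per library and a line through the means. The points of 48 h (red) lie above those of 24 h (blue) for the cholesterol, fatty acid, smooth muscle and ATF4 lists and below them for the interferon list, while those of ribosomal protein genes overlap as groups but are lower at 48 h in each of the 3 same-numbered pairs.

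The steps from 18 h to 42 h and from 30 h to 54 h were set beside this one. At 42 h 553 genes were higher and 294 lower than at 18 h (4.36% and 2.32% of those tested), and at 54 h 132 were higher and 84 lower than at 30 h (1.04% and 0.662%). The median size of the log2 fold change over all genes was 0.112 for 42 h against 18 h, 0.102 for 48 h against 24 h and 0.085 for 54 h against 30 h. Of the 343 genes that rose, 87.2% had a positive log2 fold change for 42 h over 18 h, against 47.7% of all genes, and 89.2% for 54 h over 30 h, against 51.4% of all genes. Of the 154 that fell, 87.7% and 96.8% had a negative one, against 52.3% and 48.6% of all genes. Genes that rose in both 48 h against 24 h and 42 h against 18 h numbered 204, 59.5% of the first list and 36.9% of the second, and those that fell in both numbered 63, 40.9% and 21.4%. With 54 h against 30 h the shared rises were 87 (25.4% and 65.9%) and the shared falls 47 (30.5% and 56.0%). In each of these 3 steps 59 genes rose and 22 fell. Timp3 was one of these, with log2 fold changes of 1.05 ± 0.11, 1.04 ± 0.11 and 0.78 ± 0.11 for 48 h over 24 h, 42 h over 18 h and 54 h over 30 h, and so were Mgll (1.34, 1.70 and 0.85), Ccn2 (1.14, 1.18 and 0.71), Myh4 (0.60, 0.51 and 0.51) and, downward, Myog (-0.48, -0.62 and -0.47), Mymx (-0.60, -0.70 and -0.86) and Scara5 (-1.56, -1.08 and -1.71).

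A test of the difference between steps asked which genes moved unequally. Between 48 h against 24 h and 42 h against 18 h, 77 genes differed by edgeR (0.607% of those tested), 42 upward (0.331%) and 35 downward (0.276%). Among them were 12 of the cholesterol list, 3 of the fatty acid list and 11 of the ATF4 list. Of the 26 cholesterol genes, 24 were higher at 42 h than at 18 h (median 0.92), 10 at 48 h than at 24 h (median 0.23) and 0 at 54 h than at 30 h, where 1 was lower (median -0.09). Nsdhl had log2 fold changes of 0.42 ± 0.06 at 48 h and 1.25 ± 0.06 at 42 h, a difference of -0.83 ± 0.09 (edgeR adjusted p = 7.55e-06). Of the 37 ATF4 targets 1 rose and 12 fell at 42 h against 18 h (median -0.27), 12 rose and 1 fell at 48 h against 24 h (median 0.25), and 10 rose and 0 fell at 54 h against 30 h (median 0.28). Pck2 rose by 0.71 ± 0.08 at 48 h and had -0.40 ± 0.08 at 42 h, a difference of 1.11 ± 0.11 (edgeR adjusted p = 2.65e-06). Of the 41 interferon genes 27 fell at 42 h against 18 h (median -1.03), 3 at 48 h against 24 h and 0 at 54 h against 30 h. Of the 30 mitosis genes 0 rose and 5 fell at 42 h, 2 rose at 48 h and 6 rose at 54 h, each against 24 h earlier. Between 48 h against 24 h and 54 h against 30 h 11 genes differed (0.0867%), 10 upward (0.0788%) and 1 downward (0.00788%). Col8a2 rose by 1.71 ± 0.08 at 48 h and by 0.96 ± 0.08 at 54 h, a difference of 0.75 ± 0.12 (edgeR adjusted p = 0.00593), and Tagln by 1.15 ± 0.08 and 0.53 ± 0.08, a difference of 0.62 ± 0.11 (edgeR adjusted p = 0.0171). Without the 9 libraries numbered 2, 0 genes differed between those 2 steps by edgeR, with 376 genes at an unadjusted p under 0.05, whereas DESeq2 on all libraries gave 21 higher and 6 lower.

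**Figure D5:**
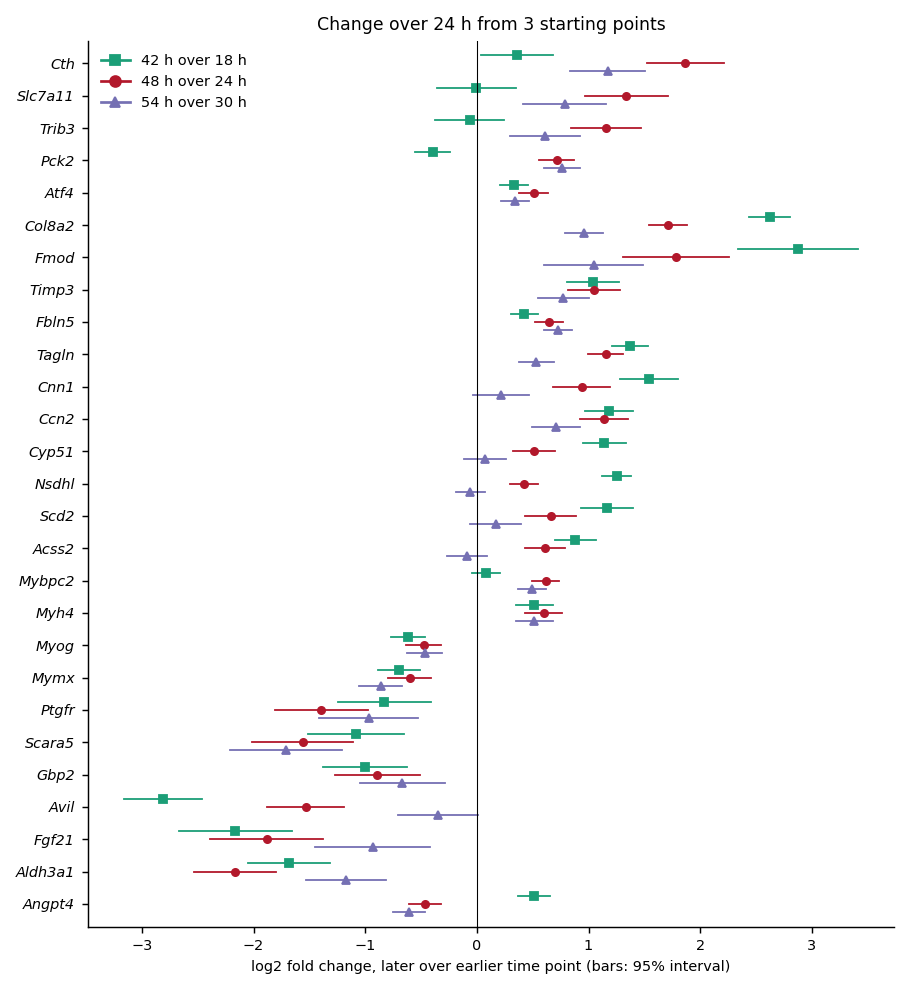
Log2 fold change with its 95% interval (horizontal axis) of 27 genes for 42 h over 18 h (squares), 48 h over 24 h (circles) and 54 h over 30 h (triangles). Timp3, Ccn2, Myh4, Myog and Mymx keep their sign, Col8a2, Tagln, Avil and the lipid genes lie nearer to 0 in each later step, and Pck2 and Angpt4 lie on opposite sides of 0 in the first step and the later ones.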

How the data were processed

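Total RNA depleted of ribosomal RNA was sequenced in stranded libraries, per the labels' protocols. The table the authors deposited holds raw counts, as whole numbers of reads for 20446 Ensembl genes and 27 libraries. Trim Galore 0.4.0 with cutadapt 1.9.1 trimmed the reads and featureCounts counted them on mm10, according to the submitters' processing notes. No aligner, annotation release or strand setting is given in the sources used here. GENCODE M21 named 20327 genes.

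Libraries were grouped by title. Genes passed filterByExpr (minimum count 10). Of the 7759 left out, 3717 had no read. Counts were scaled by TMM (factors 0.979 to 1.03) and fitted in edgeR 4.0.16 (R 4.3.3) with the 9 time points as a factor, which left 18 residual degrees of freedom, and tested by robust quasi-likelihood F tests. The biological coefficient of variation was 11.8%. The scripts were tested on simulated counts. Counting noise alone did not account for the differences between libraries of one group, so none was taken as a duplicate deposit; this does not show separate cultures. Same-numbered libraries of 48 h and 24 h deviated together in all 3 pairs (r = 0.247 to 0.612). The pattern was less clear in another step, where number 1 of 54 h correlated at 0.236 with number 1 of 30 h and at 0.347 with number 3. The labels do not say that the numbers are pairs. The main fit leaves the number out, and the fit with the number as a block is given beside results it changes.

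Genes named were the 15 largest changes each way (adjusted p under 0.05, mean of at least 1 CPM, no overlap), all clock genes, up to 4 per list (41 lists) and 6 per difference between steps by p. Pseudogenes, short RNAs and predicted genes stayed unnamed, and genes outside this rule are said to be chosen after their values were seen. A few genes that this rule names are not reported here. The comparison, lists and motifs were chosen with earlier results of these data known. Alternatives were DESeq2 1.42.0, limma-voom 3.58.1, median of ratios scaling, no and a stricter filter, the block, each library left out, the libraries of the contrast alone and adjusted p under 0.01. The fit without the 9 libraries numbered 2 was chosen after the data were seen.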

Additional observations from a re-analysis of the deposited data

Results flagged for a closer look

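For 12 genes the change from 24 h to 48 h differed from the change in another step of 24 h by a test of the difference itself, with edgeR's quasi-likelihood test and Benjamini-Hochberg adjustment over all genes. They are the 6 with the smallest p in each of the 2 differences.

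Against the step from 18 h to 42 h, the matrix protein gene Cilp had log2 fold changes of 0.06 ± 0.11 for 48 h over 24 h and 1.76 ± 0.11 for 42 h over 18 h, a difference of -1.70 ± 0.16 (edgeR adjusted p = 2.65e-06). Pck2 differed by 1.11 ± 0.11, with values given above for each step. Aldh1l2, a mitochondrial enzyme of the folate cycle, had 0.12 ± 0.11 and -1.48 ± 0.11, a difference of 1.6 ± 0.16 (edgeR adjusted p = 2.65e-06), so that its 42 h level lay below that of 18 h while 48 h and 24 h were not told apart. The secreted factor gene Angpt4 went in opposite directions, -0.46 ± 0.07 and 0.51 ± 0.07, a difference of -0.98 ± 0.10 (edgeR adjusted p = 2.66e-06). The cholesterol genes Nsdhl and Lss (the cyclase that makes lanosterol) differed by -0.83 ± 0.09 and -0.98 ± 0.12. Lss had 0.31 ± 0.09 for 48 h over 24 h, which lost its call (edgeR adjusted p = 0.0438, 0.00425 to 0.218 over all alternatives) without any 1 of the 6 libraries, and 1.29 ± 0.09 for 42 h over 18 h.

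Against the step from 30 h to 54 h, Scml4 had log2 fold changes of 0.71 ± 0.07 for 48 h over 24 h and -0.06 ± 0.07 for 54 h over 30 h, a difference of 0.77 ± 0.09 (edgeR adjusted p = 0.000413). Crispld2 had 1.43 ± 0.15 and 0.11 ± 0.14, a difference of 1.32 ± 0.20 (edgeR adjusted p = 0.00593). Col25a1, a transmembrane collagen, had 0.55 ± 0.14 and -0.73 ± 0.15, a difference of 1.28 ± 0.20 (edgeR adjusted p = 0.00666), and its own change for 48 h over 24 h lost its call (edgeR adjusted p = 0.0245, 0.00619 to 0.249 over all alternatives) without any 1 library but replicate 1 of 48 h. Col8a2 and Tagln differed by 0.75 ± 0.12 and 0.62 ± 0.11. Acss2 had 0.61 ± 0.09 and -0.09 ± 0.09, a difference of 0.70 ± 0.12 (edgeR adjusted p = 0.0176). Without the 9 libraries numbered 2 no difference from the step from 30 h to 54 h was called by edgeR, with 376 genes at an unadjusted p under 0.05.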

How the results depend on the processing

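The counts depend on which libraries are fitted and on how the replicate number is treated. With the replicate number as a block, 838 genes were higher and 547 lower at 48 h than at 24 h (343 and 154 without it), 192 and 53 members of the gene lists (101 and 23), and 3 clock genes (0). The same block gave 1166 and 859 for 42 h against 18 h, 382 and 287 for 54 h against 30 h, 152 and 132 for the difference from the 42 h step, 71 and 13 for the difference from the 54 h step, 570 and 256 for 36 h against 24 h, and 50 and 64 for 48 h against 36 h. Without the 9 libraries numbered 2, a fit chosen after seeing the data, the counts were 152 and 60, 62 list members higher, 166 lower for 42 h, 39 and 29 for 54 h, 15 higher for the first difference, 0 and 0 for the second (376 genes at an unadjusted p under 0.05), 75 and 22 for 36 h, and 6 and 3 for 48 h against 36 h. From the libraries of each contrast alone they were 77 and 40, 34 and 15 list members, 309 and 120, 5 and 1, 8 and 9, 1 and 0, 54 and 16, and 0 and 0 by edgeR (296 at an unadjusted p under 0.05) in the same order of contrasts. At an adjusted p under 0.01 they were 182 and 74, 62 list members higher, 344 and 156, 56 and 30, 16 and 14, 4 and 0, 105 and 26, and 8 and 4. DESeq2 gave 21 and 6 for the second difference and 27 and 17 for 48 h against 36 h, and without a filter 0 were lower in the second difference. The cause of these shifts was not tested.

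Leaving out 1 library gave 223 to 272 genes higher and 99 to 120 lower, with 74 to 83 and 20 to 21 list members and 0 to 1 clock genes. For the other contrasts the ranges were 387 to 447 and 204 to 313 (42 h), 58 to 97 and 34 to 64 (54 h), 23 to 56 and 19 to 34, and 4 to 12 and 0 to 2 (differences), 115 to 185 and 30 to 55 (36 h against 24 h), and 3 to 10 and 3 to 7 (48 h against 36 h).

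Among genes named, only ones that were not called turned direction, all with log2 fold changes near 0. These were Clock (0.01), Nr1d1 (-0.01) and Rora (0.02) without the libraries numbered 2, and Per1 with limma-voom (-0.01), without a filter (-0.00) and with the block (-0.00). With 1 library left out the log2 fold changes ran from -0.02 to 0.07 (Arntl), -0.13 to 0.03 (Clock), -0.22 to 0.21 (Per1), -0.10 to 0.10 (Per2), -0.32 to 0.05 (Per3), -0.16 to 0.07 (Cry2), -0.31 to 0.33 (Nr1d1), -0.03 to 0.12 (Nr1d2), -0.19 to 0.13 (Rora), -0.36 to 0.07 (Rorb), -0.09 to 0.02 (Tef), -0.11 to 0.18 (Ciart), -0.06 to 0.22 (Aldh1l2) and -0.04 to 0.13 (Cilp). Depth limits the genes under about 1 CPM, and 3 libraries a time point limit all of them.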

Other observations

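The following genes are on none of the lists and were chosen after their values were seen, so they are given as a description of single genes. Among secreted and surface proteins, Mgp, the inhibitor of calcification matrix Gla protein, was at 954, 1124 and 734 CPM at 48 h, against 518, 563 and 479 CPM at 24 h (log2 fold change 0.85 ± 0.15, edgeR adjusted p = 0.000881). Has2, which makes hyaluronan, was at 133, 134 and 133 CPM at 48 h, against 91.1, 92.8 and 86.5 CPM at 24 h, with libraries that barely differ within a time point (0.56 ± 0.08, edgeR adjusted p = 7.93e-05). Cthrc1, a secreted protein of injured tissue, was at 15.4, 18.8 and 16.7 CPM at 48 h, against 7.80, 9.21 and 7.56 CPM at 24 h (1.05 ± 0.16, edgeR adjusted p = 0.000213), and Adam12, a metalloproteinase of fusing myoblasts, at 50.7, 38.3 and 53.8 CPM at 48 h, against 26.2, 20.0 and 26.8 CPM at 24 h (0.97 ± 0.16, edgeR adjusted p = 0.000378). The laminin chain gene Lamb3 (0.74 ± 0.10, edgeR adjusted p = 4.49e-05), the gap junction gene Gja5 (0.67 ± 0.08, edgeR adjusted p = 1.63e-05) and the phosphate transporter gene Slc20a1 (0.70 ± 0.07, edgeR adjusted p = 3.41e-07) rose as well. In all 7 genes the 3 libraries of 48 h lay above those of 24 h.

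Bcat1, Mthfd1l and Aldh18a1, enzymes on none of the lists, also rose. Bcat1, which transfers the amino group of branched-chain amino acids, was at 69.9, 70.7 and 76.6 CPM at 48 h, against 41.6, 42.7 and 40.3 CPM at 24 h (0.80 ± 0.09, edgeR adjusted p = 2.85e-06). Mthfd1l, of the mitochondrial folate cycle (0.42 ± 0.07, edgeR adjusted p = 0.000318), and Aldh18a1, which starts proline synthesis (0.41 ± 0.09, edgeR adjusted p = 0.00809), rose by less. Among the genes that fell, Gas1, a membrane protein named for its rise in growth arrest, was at 80.4, 76.2 and 80.0 CPM at 48 h, against 143, 137 and 162 CPM at 24 h (-0.90 ± 0.09, edgeR adjusted p = 8.61e-07). Ephx1, an epoxide hydrolase, was at 116, 128 and 115 CPM at 48 h, against 162, 175 and 158 CPM at 24 h (-0.47 ± 0.09, edgeR adjusted p = 0.00162). Bcl2l11, the cell death gene Bim, was at 16.1, 12.2 and 14.7 CPM at 48 h, against 21.9, 22.2 and 25.8 CPM at 24 h (-0.70 ± 0.15, edgeR adjusted p = 0.00571), and Smad3, which carries the TGF beta signal, at 139.7, 124 and 140.4 CPM at 48 h, against 183, 170.1 and 196 CPM at 24 h (-0.44 ± 0.08, edgeR adjusted p = 0.00231). In none of these 4 genes that fell did the groups overlap.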
